A study of Homo sapiens with 12 samples.

Results

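Control CAL-29 cells were compared with control 5637 cells. Both are established human bladder carcinoma lines that the study used as models of muscle-invasive bladder cancer (MIBC), and the comparison asked how their transcriptomes differed before any depletion of KMT9α. The 6 libraries transfected with the control siRNA (siCtrl), 3 of each line, were chosen from the 12 libraries of the series by their labels. The other 6 libraries carried an siRNA against KMT9α (siKMT9α) and served here as a second set in which the same difference between the lines could be read. All cells were wild type by their labels and were harvested 3 days after transfection. CAL-29 cells were grown in DMEM and transfected with 50 nM siRNA in RNAiMAX, whereas 5637 cells were grown in an RPMI medium and transfected with 90 nM siRNA in DharmaFECT 3, and the counts of each line were deposited in a table of its own. Line, medium, reagent, siRNA concentration and table changed together, so their parts in any difference cannot be told apart. Each line is 1 cell line and stands for no group of tumors. The labels do not say whether replicates came from separate cultures, so the p-values measure the spread between these libraries, which may be technical.

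The targeted gene was measured first. N6AMT1, which encodes the methyltransferase subunit KMT9α, was at 11.1, 9.98 and 9.43 counts for each 1e+06 counts of a library (CPM) in the siCtrl libraries of CAL-29 cells and at 13.6, 13.4 and 13.5 CPM in those of 5637 cells. Its log2 fold change was -0.41 ± 0.09 (SE), which did not pass the test against a 2-fold difference. The siCtrl libraries of the lines did not overlap, which was so for 85.6% of all genes tested. In the siKMT9α libraries it was at 2.55 ± 0.505 CPM (SD, n = 3) in CAL-29 cells and 2.9 ± 0.821 CPM (SD, n = 3) in 5637 cells. TRMT112, the partner subunit called KMT9β, was at 50.4, 60.2 and 58 CPM in CAL-29 and 182, 203 and 198 CPM in 5637 cells, a log2 fold change of -1.79 ± 0.06, and was higher in every 5637 library. However, 25.8% of the exon bases of TRMT112 are overlapped by a gene on the other strand, and reads were counted with HOMER at its default settings, without a statement of the strand counted or of whether the libraries keep strand. A gene on the other strand also covers 9.24% to 19.9% of the exon bases of KRT18, ELF3, UPK1A, KRT17, KRT13, THY1, PHLDA1, CCND1, CXCL5, IL6, IFITM1, IFITM3, DKK1, TGFB2, MDM2, MIR31HG, NQO1 and GSTM1. The receptor gene EGFR was at 245, 213 and 214 CPM in CAL-29 and 264, 274 and 253 CPM in 5637 cells. The kinase gene AKT1 was at 164, 177 and 175 CPM and 209.9, 215 and 233 CPM. Neither gene passed the 2-fold test. For each the libraries of the lines did not overlap, as for 85.6% of all genes tested, so this does not set them apart.

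Here and below, a log2 fold change is CAL-29 over 5637, so that a positive value is higher in CAL-29 cells. The ± after it is an approximate standard error (SE). It is the absolute log2 fold change divided by the square root of the quasi-likelihood F statistic against no difference. Where per-library values are given for a gene, the 3 CAL-29 libraries come first and the 3 libraries of 5637 cells follow, in order of replicate number, and a mean with ± in CPM gives the SD of 3 libraries. CPM are scaled with the trimmed mean of M-values (TMM). A gene is called higher in a line when edgeR's quasi-likelihood test against a 2-fold difference gave an adjusted p below 0.05. The libraries held 25286849.5 to 35148811.5 counts on the transcripts kept, and 15070 genes were tested. At an unadjusted p below 1e-06, 8256 genes (54.8%) differed, 4015 higher in CAL-29 and 4241 higher in 5637 cells, and 85.2% of the genes had an adjusted p below 0.05 against no difference. Since so many genes differed, the lists below are counted with the 2-fold test, which called 4930 genes (32.7%): 2531 (16.8%) higher in CAL-29 and 2399 (15.9%) higher in 5637 cells. These shares are the measure for every list count below, also where they are not repeated. A list called at about these shares is not set apart by its count. For all of these 4930 genes, and for 85.6% of all genes tested, the libraries of the lines did not overlap. Where a called gene is said below not to overlap, this therefore adds nothing to its call. An exact permutation test of a single gene with 3 libraries against 3 cannot go below 0.1. In the siKMT9α libraries the same test called 29.1% of 14814 genes. Of the 4662 genes called with siCtrl and tested there, 3356 were called in the same direction, which is 72.0% of the siCtrl calls and 79.9% of the siKMT9α calls, and 9 were called in the opposite direction.

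The urothelium that lines the bladder is a stratified epithelium with basal cells, intermediate cells and, on the luminal side, umbrella cells that cover themselves with plaques of uroplakin proteins. GATA3, FOXA1 and PPARG are transcription factors of the luminal layers, and KRT5, KRT14 and TP63 mark the basal layer. Bladder carcinomas are commonly sorted by these programs into luminal and basal/squamous subtypes, and squamous tumors add the keratins, involucrin and small proline-rich proteins of the epidermis. A bulk library gives the mean of the culture, so more cells with a gene and more RNA per cell cannot be told apart.

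Both lines carried the markers of epithelium, and most of the members that differed were higher in CAL-29 cells. Of the 20 genes of simple epithelium and epithelial splicing, 12 were higher in CAL-29 and 1 was higher in 5637 cells, and the median log2 fold change of the list was 1.24 against 0.01 over all genes. CDH1, the adhesion protein E-cadherin, was at 2379.8, 2236 and 2028 CPM in CAL-29 and 325, 339 and 335 CPM in 5637 cells (6.65-fold, adjusted p = 7.9e-16, edgeR). KRT8, a keratin of simple epithelia, was at 4457, 4747 and 4649 CPM and 1032, 1084 and 1081 CPM (4.33-fold). Its partner keratin KRT18 was at 2179 ± 86.6 CPM and 841 ± 30.6 CPM (SD, n = 3). Each of these genes was higher in every CAL-29 library than in any 5637 library. The same held for CLDN4, a tight junction claudin (2.54 ± 0.07), and for ESRP1 (1.23 ± 0.05) and ESRP2 (1.44 ± 0.06), which direct epithelial splicing. KRT7, a keratin of simple and transitional epithelia, was the exception, at 69.1, 78.4 and 78.9 CPM in CAL-29 and 3513, 3585 and 3717 CPM in 5637 cells (47.8-fold higher in 5637). EPCAM, an epithelial adhesion molecule, was at 223 ± 13 CPM and 280.4 ± 2.22 CPM and did not pass the 2-fold test, nor did the keratin KRT19 at 1402 ± 28.3 CPM and 1579 ± 43.1 CPM.

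The transcription factors of luminal cells were divided between the lines. Of 12 tested, 6 were higher in CAL-29 and 4 in 5637 cells. GATA3 was at 87.8, 88.8 and 90.5 CPM in CAL-29 and 37.7, 38 and 37.2 CPM in 5637 cells (1.24 ± 0.05). The pioneer factor FOXA1 was at 65.1, 66.1 and 62.8 CPM and 12.2, 10.7 and 11.5 CPM (2.49 ± 0.06). Both were higher in every CAL-29 library. GRHL3, which acts in umbrella cell and epidermal barrier differentiation, was at 16.1, 16.1 and 14.4 CPM and 1.03, 1.24 and 1.49 CPM (3.62 ± 0.14), and the T-box factor TBX2 was 10.4-fold higher in CAL-29 cells. PPARG, the nuclear receptor that drives urothelial differentiation, went the other way, at 23.7, 23.8 and 22.9 CPM in CAL-29 and 86.5, 87.9 and 88.5 CPM in 5637 cells (-1.90 ± 0.05). On the same side were EHF, an ETS factor of epithelia (-2.55 ± 0.05), KLF5, a Krüppel-like factor (-1.30 ± 0.05), and FOXQ1 (-1.33 ± 0.05). No overlap between the lines was seen for any of these 8 genes. ELF3, another ETS factor of epithelia, did not pass the 2-fold test with siCtrl (0.46 ± 0.05) and passed it in the siKMT9α libraries (2.03).

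The umbrella cell genes that differed were, with 1 exception, higher in CAL-29 cells. Of 11 tested, 7 were higher in CAL-29 and 1 in 5637 cells. The median of the list was 3.58, and 0.99 when only genes with at least 10 counts in every library were kept. UPK1B, a tetraspanin of the uroplakin plaque, was at 319, 304 and 278 CPM in CAL-29 and 5.53, 5.42 and 6.49 CPM in 5637 cells (51.4-fold, adjusted p = 1.39e-20, edgeR). UPK2 reached 7.87, 7.39 and 8.36 CPM against 0.746, 0.62 and 0.601 CPM (3.58 ± 0.18). KRT20, a keratin of umbrella cells, was at 13.1, 12.3 and 11.1 CPM and 0.0311, 0 and 0.0858 CPM (8.08 ± 0.28). The CAL-29 libraries lay above all 5637 libraries for each of the 3 genes. GPX2, a glutathione peroxidase, was at 34.2, 38.4 and 38.8 CPM in CAL-29 cells and had 2 counts in all in 5637 cells. UPK1A, the second tetraspanin of the plaque, was at 0.437, 1.1 and 0.516 CPM and 0.0622, 0 and 0 CPM. UPK3A was at 0.318, 0.533 and 0.737 CPM and 0.0933, 0.0327 and 0.0572 CPM and did not reach the filter for testing. UPK3B, another uroplakin, was at 276, 274 and 284 CPM and 294, 290.1 and 327 CPM and did not pass the 2-fold test with siCtrl, although it did in the siKMT9α libraries (1.26). With siKMT9α the log2 fold change was 7.42 for UPK1B, 5.23 for UPK2 and 8.77 for KRT20.

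The basal keratins KRT5 and KRT17 and the factor TP63 did not pass the 2-fold test. Of 16 basal genes tested, 1 was higher in CAL-29 and 5 in 5637 cells, 6 of 16 where 32.7% of all genes were called. The median of the list was -0.02 and changed sign under some alternative settings. KRT5 was at 2088, 2366 and 2347 CPM in CAL-29 and 1249, 1339 and 1336 CPM in 5637 cells. KRT17 was at 1632, 1845 and 1914 CPM and 1587, 1703 and 1653 CPM. TP63, the p63 transcription factor, was at 185, 202 and 218 CPM and 127, 128 and 126 CPM. The libraries did not overlap for KRT5 and TP63, which were higher in CAL-29 cells by less than 2-fold, and they overlapped for KRT17. KRT14, the partner of KRT5 in basal cells, was at 0.954, 1.1 and 0.553 CPM and 3.36, 3.17 and 3.4 CPM (-1.93 ± 0.23). Among the genes that attach basal cells to the matrix, COL17A1, a collagen of the hemidesmosome, was at 31.4, 28.3 and 25.9 CPM in CAL-29 and 366, 361 and 365 CPM in 5637 cells (-3.67 ± 0.06). DST, which encodes the plakin BP230 of the same structure, was at 433, 378 and 409.7 CPM and 31.9, 30.7 and 31.8 CPM (3.69 ± 0.06). COL17A1 and DST therefore lay on opposite sides, and whether the DST counts came from BP230 was not tested. The adhesion receptors CD44 (-1.22 ± 0.07) and ITGA6 (-1.25 ± 0.05) were higher in 5637 cells. SOX2, a transcription factor of squamous progenitors, was at 0.239, 0.571 and 0.258 CPM and 4.7, 5.84 and 4.55 CPM (-3.80 ± 0.26) and was not called in the siKMT9α libraries.

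Squamous differentiation genes were called in large number and in both directions. Of 33 tested, 17 were higher in CAL-29 and 9 in 5637 cells, so that 26 of 33 were called where 32.7% of all genes were. IVL, or involucrin, a protein of the cornified envelope, was at 251, 256 and 261 CPM in CAL-29 and 5.85, 6.33 and 7.78 CPM in 5637 cells (38.3-fold, adjusted p = 3.45e-20, edgeR). SPRR3, a small proline-rich protein of the same envelope, was at 53, 57 and 57.7 CPM in CAL-29 cells and had no count in the 5637 libraries, which makes it at least 1821-fold higher against a floor of 3 counts over the group. KRT13, the keratin of suprabasal mucosa, was at 72.7, 77.5 and 72.4 CPM and 0.933, 1.14 and 1.17 CPM (6.09 ± 0.09). All CAL-29 libraries were above all 5637 libraries for these genes. The serine protease KLK6 was at 146, 143 and 143 CPM and 2.46, 2.29 and 2 CPM (64.1-fold), although a gene on the other strand covers 20.5% of its exon bases. KRT16 (2.49 ± 0.06), a keratin of hyperproliferative epidermis, and the desmosomal cadherin DSG3 (2.38 ± 0.06) were also higher in CAL-29 cells. On the 5637 side, S100A9, a subunit of calprotectin, was at 33.2, 33.9 and 28.8 CPM in CAL-29 and 642, 661 and 694 CPM in 5637 cells (20.9-fold higher in 5637). KRT6A, a keratin of wounded epidermis, was at 55.9, 55.9 and 51.6 CPM and 277, 306 and 282 CPM (-2.40 ± 0.05). The protease inhibitors SERPINB2 (-3.30 ± 0.07) and PI3 (-3.72 ± 0.11) were higher in 5637 cells too. KRT6A shares most of its sequence with KRT6B and KRT6C, and the SPRR genes resemble each other, so the split of reads among copies is uncertain. With siKMT9α, 13 of the 26 calls were made in the same direction. There the log2 fold change was 5.79 for IVL, -1.05 for S100A9 and -4.80 for KRT6A, and the median of the list was 0.06. With siCtrl it was 1.11, and 0.60, 0.58 or 0.54 when CAL-29 replicate 1, 2 or 3 was left out, which changed the members that reached the filter.

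**Figure D1:**
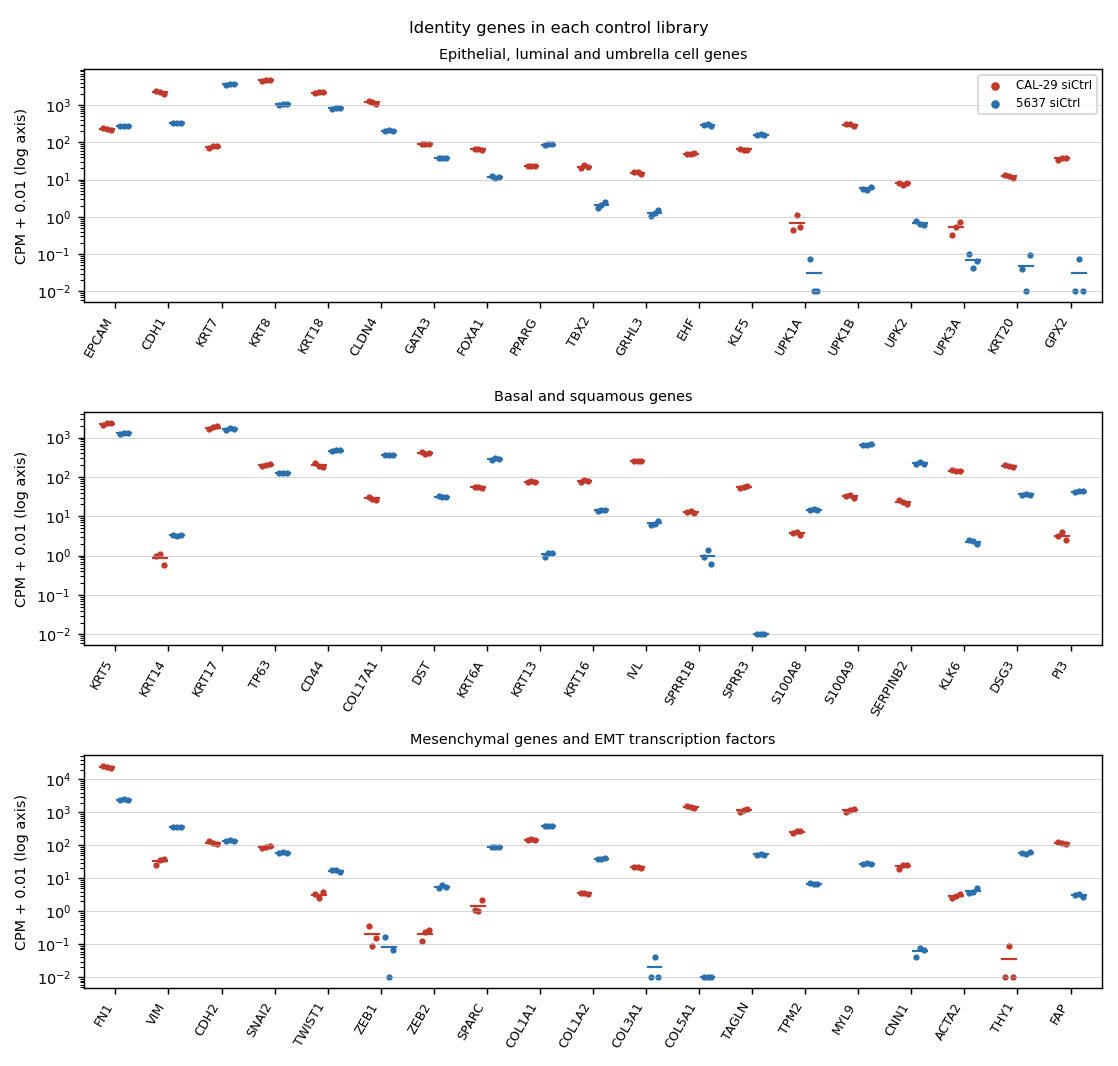
CPM plus 0.01 (log axis) of identity genes in each siCtrl library, with CAL-29 in red, 5637 in blue and a bar at the mean of 3 libraries. KRT5 and KRT17 lie close together in the lines, UPK1B and KRT20 lie higher in CAL-29 cells, and FN1 and VIM, both mesenchymal markers, lie on opposite sides.

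Mesenchymal genes were called in both directions. Of 25 tested, 8 were higher in CAL-29 and 10 in 5637 cells, and all 18 of these calls were made in the same direction in the siKMT9α libraries. FN1, the matrix protein fibronectin, was at 25979, 23929 and 22644 CPM in CAL-29 and 2370.1, 2535 and 2352 CPM in 5637 cells (3.32 ± 0.08). It was the gene with the most counts in each of the 3 CAL-29 siCtrl libraries. VIM, the intermediate filament vimentin, was at 25.6, 36.3 and 39.5 CPM in CAL-29 and 357, 368 and 372 CPM in 5637 cells (10.8-fold higher in 5637). CAL-29 and 5637 libraries were far apart for both genes, in opposite directions. COL5A1, a fibrillar collagen, was at 1522, 1431 and 1353 CPM in CAL-29 cells and had no count in 5637 cells, at least 46762-fold higher in CAL-29. COL3A1 was at 22, 22.6 and 20.2 CPM in CAL-29 cells with 1 count in all in 5637 cells. Both chains of type I collagen were instead higher in 5637 cells. COL1A1 was at 145, 152 and 143 CPM and 376, 384 and 376 CPM (-1.37 ± 0.05), and COL1A2 at 3.57 ± 0.155 CPM and 39.2 ± 1.06 CPM. Genes of smooth muscle contraction gave no single order. MYL9, a myosin light chain, was at 1024, 1190.1 and 1288 CPM and 27.3, 28.6 and 27.7 CPM (5.39 ± 0.08). CNN1, the gene of calponin, was at 18.9, 25.5 and 25.9 CPM and 0.0311, 0.0653 and 0.0572 CPM (8.73 ± 0.26). TAGLN, or transgelin, was 22.2-fold higher in CAL-29 cells. ACTA2, the smooth muscle actin, was at 2.99 ± 0.46 CPM and 4.17 ± 0.775 CPM and did not pass the 2-fold test. On the 5637 side stood SPARC, a secreted matrix protein (-5.98 ± 0.12), and THY1, at 59, 55.4 and 62.2 CPM in 5637 cells with 2 counts in all in CAL-29 cells. Of the transcription factors of the epithelial-mesenchymal transition, TWIST1 (-2.40 ± 0.13) and ZEB2 (-4.76 ± 0.26) were higher in 5637 cells. SNAI2 (0.58 ± 0.06) did not pass the test, and ZEB1, at 0.358, 0.0762 and 0.147 CPM and 0.155, 0 and 0.0572 CPM, did not reach the filter. The cadherin CDH2 was at 121 ± 9.98 CPM and 140.2 ± 6.34 CPM and was not called. Genes on the other strand overlap 24.6% of the exon bases of VIM, 34.1% of those of TAGLN and 35.9% of those of ACTA2.

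Most defining markers of other cell types were at or near 0 and some were not, and their part in the differences was not tested. On average in CAL-29 and 5637 cells, the stromal marker PDGFRB was at 0.638 and 1.36 CPM, PDGFRA at 0.179 and 1.18 CPM and LUM at 0.462 and 0.103 CPM. PDGFRA passed the 2-fold test (-2.70 ± 0.38), PDGFRB did not, and LUM did not reach the filter. The other stromal markers are given above with the mesenchymal genes and were not near 0 throughout. COL1A1 was far from 0 in both lines and COL3A1 in CAL-29 cells, and ACTA2 was at a few CPM in both. Of the leukocyte markers, PTPRC was at 0.205 and 0.0929 CPM, CD3E at 0.0127 and 0 CPM and CD14 at 1.62 and 0.878 CPM. Of the endothelial markers, PECAM1 was at 0.0499 and 0.0381 CPM, CDH5 at 0.666 and 1.2 CPM and VWF at 0.978 and 0.343 CPM. KDR, an endothelial receptor for VEGF, was not near 0 in CAL-29 cells, at 11.6, 10.5 and 9.36 CPM and 1.71, 1.11 and 1.37 CPM (2.90 ± 0.16). Over the list of 14 leukocyte and endothelial genes, 7 reached the filter for testing and 3 were higher in CAL-29 cells, where 32.7% of all genes were called. The 3 were KDR, CSF1R and ITGAM, the last below 1 CPM and named after its value was seen. The summed level of the list was 29.9 to 34.8 CPM over the CAL-29 libraries and 7.09 to 7.49 CPM over the 5637 libraries. In CAL-29 cells the largest part of this sum was CSF1R, followed by KDR, whereas in 5637 cells CSF1R was below KDR. CSF1R, the receptor for colony-stimulating factor 1, was at 12.3, 11.6 and 11.3 CPM and 0.466, 0.62 and 0.343 CPM (4.63 ± 0.18). In the neuroendocrine list, 2 of 7 tested genes were higher in CAL-29 and 3 in 5637 cells. Its defining markers SYP (0.592 and 0.225 CPM), CHGA (0.0378 and 0 CPM) and INSM1 (0 counts in both lines) were at or near 0, and the called members included UCHL1, a ubiquitin hydrolase, at 14.7, 12.7 and 13.8 CPM and 0.435, 0.555 and 0.143 CPM. None of 21 cancer-testis antigen genes reached the filter.

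HOX genes, the homeobox factors that record position along the body axis, differed by cluster. Of 36 tested HOX genes, 11 were higher in CAL-29 and 10 in 5637 cells. The HOXC cluster held 8 of the 11. Every tested gene from HOXC4 to HOXC13 was higher in CAL-29 cells, and the 9 genes of the cluster summed to 8351 counts in CAL-29 and 63 counts in 5637 libraries. The median of the cluster was 6.19 on the log2 scale with siCtrl and 5.90 in the siKMT9α libraries. HOXC13 was at 62.6, 72.1 and 63.4 CPM and 0.0622, 0 and 0.143 CPM. HOXC9 was at 8.43, 8.23 and 8.36 CPM and 0.218, 0.196 and 0.114 CPM (5.55 ± 0.22). HOXC10 was at 6.12, 7.39 and 7.37 CPM with no count in 5637 cells, at least 227-fold higher. For each of them the CAL-29 libraries were far above those of 5637 cells. The HOXA cluster was expressed in both lines, with summed levels of 179.8 and 178.1 CPM. Within it HOXA13, the posterior member, was at 11.8, 13 and 11.4 CPM in CAL-29 and 0.155, 0.392 and 0.343 CPM in 5637 cells (5.33 ± 0.20), and HOXA3 was higher in 5637 cells (-2.11 ± 0.08). HOXB9 (-1.88 ± 0.07), HOXD3 (-3.63 ± 0.20) and HOXD13 (-3.02 ± 0.16) were also higher in 5637 cells, and no gene of the HOXB cluster was called higher in CAL-29 cells. Genes on the other strand overlap 17.3% of the exon bases of HOXA3, 14.1% of those of HOXD3 and 9.78% of those of HOXC9.

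**Figure D2:**
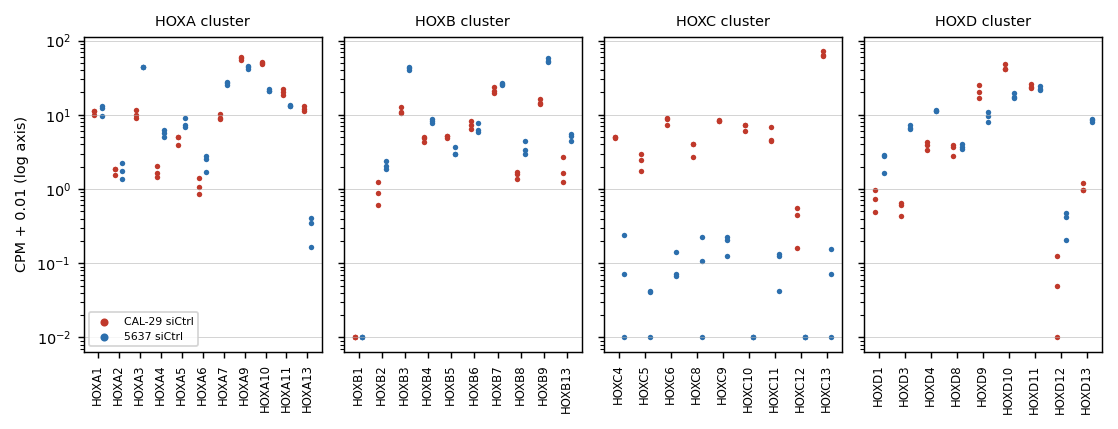
CPM plus 0.01 (log axis) of the HOX genes of the 4 clusters in each siCtrl library, CAL-29 in red and 5637 in blue (n = 3 each), in order of gene number. The HOXC genes lie at or near the bottom of the axis in 5637 cells and above it in CAL-29 cells, and HOXA13 shows a like gap.

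The EGFR family binds growth factors released from membrane precursors and signals through RAS and ERK. Of 13 receptors and ligands tested, 3 were higher in CAL-29 and 4 in 5637 cells, 7 of 13 where 32.7% of all genes were called. Among the receptors, EGFR, ERBB2 and ERBB3 did not pass the 2-fold test, with ERBB2 at 217, 208 and 193 CPM in CAL-29 and 191, 185 and 199.6 CPM in 5637 cells, which overlapped. The ligand HBEGF was at 8.99, 8.15 and 6.56 CPM in CAL-29 and 108, 120.2 and 112 CPM in 5637 cells (14.4-fold higher in 5637). EREG, or epiregulin, was at 22.4, 18.3 and 15.4 CPM and 108, 108 and 105 CPM (-2.52 ± 0.08). AREG, or amphiregulin, was at 2.94, 2.7 and 1.88 CPM and 14.5, 16.3 and 15.1 CPM (-2.61 ± 0.13). All 3 ligands were higher in every 5637 library. NRG1, a neuregulin that binds ERBB3, was also higher in 5637 cells (-1.38 ± 0.11). EGF itself was higher in CAL-29 cells, at 5.17, 6.06 and 5.53 CPM and 0.28, 0.196 and 0.0286 CPM. These 5 ligands were called in the same direction in the siKMT9α libraries, where the log2 fold change was -4.78 for HBEGF, -2.14 for EREG and 4.02 for EGF.

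FGFR3, a receptor that is often mutated in luminal bladder tumors, was at 69.6, 74.4 and 70.2 CPM in CAL-29 and 5.16, 6.01 and 6.29 CPM in 5637 cells (12.2-fold, adjusted p = 2.64e-17, edgeR). Its libraries did not overlap between the lines. FGFR2 (75.2 ± 0.366 and 37.2 ± 1.56 CPM) and FGFR1 (22.4 ± 2.08 and 28.2 ± 0.526 CPM) did not pass the 2-fold test. Over the FGF list, 2 of 13 were higher in CAL-29 and 4 in 5637 cells, 6 of 13 where 32.7% of all genes were called. Among those higher in 5637 cells was FGFBP1, a carrier that frees FGF from the matrix (-1.90 ± 0.07). Among 27 genes of other receptor tyrosine kinases and their ligands, 6 were called in each direction, 12 of 27 where 32.7% of all genes were called. AXL was at 73.6, 70.8 and 67.1 CPM in CAL-29 and 701, 724 and 689 CPM in 5637 cells (-3.32 ± 0.05). GAS6, the ligand of AXL, was at 44.8, 43 and 41.8 CPM and 143, 143 and 141 CPM (-1.72 ± 0.05). Receptor and ligand were both higher in every 5637 library. The ephrin receptors EPHA4 (2.80 ± 0.07) and EPHB3 (4.03 ± 0.11) and the ephrin EFNA1 (1.69 ± 0.06) were higher in CAL-29 cells. MET, the receptor for hepatocyte growth factor, did not pass the test (391 ± 27.3 and 636 ± 15.9 CPM).

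Of 18 output and feedback genes of ERK, 7 were higher in 5637 and 1 was higher in CAL-29 cells. These 8 of 18 compare with 32.7% called over all genes. The median was -0.79 with siCtrl and -1.30 in the siKMT9α libraries. EGR1, an immediate early transcription factor, was at 5.69, 6.82 and 7.07 CPM in CAL-29 and 303, 401 and 247 CPM in 5637 cells (-5.60 ± 0.15). FOSL1, the AP-1 subunit FRA1, was at 10.1, 10 and 9.25 CPM and 161, 163 and 166 CPM (-4.06 ± 0.06). The libraries of the lines were far apart for both genes. Of the PEA3 factors, ETV4 was higher in 5637 cells (-2.50 ± 0.09) and ETV5 in CAL-29 cells, at 36.1, 33.3 and 31.3 CPM against 2.27, 1.96 and 2.17 CPM (3.97 ± 0.10). The feedback inhibitor SPRY2 (-2.12 ± 0.09) and PHLDA1 (-1.45 ± 0.05) were higher in 5637 cells, and CCND1 did not pass the test (559.8 ± 10.7 against 396 ± 3.45 CPM).

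**Figure D3:**
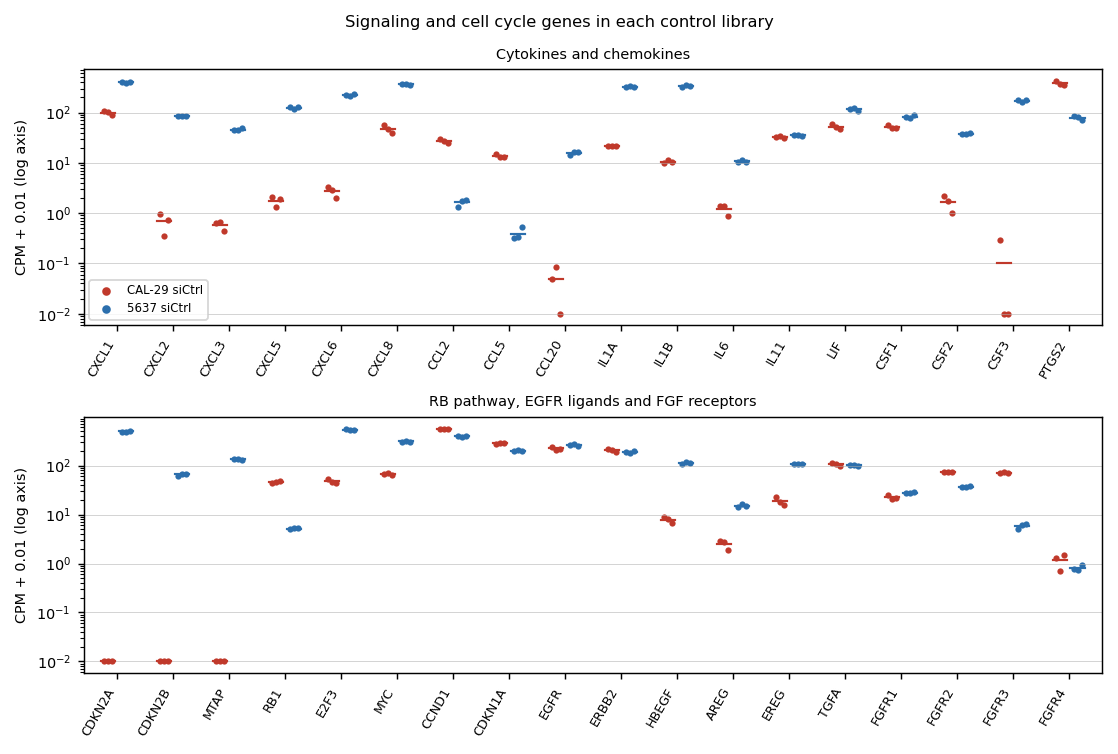
CPM plus 0.01 (log axis) in each siCtrl library (CAL-29 red, 5637 blue, bar at the mean of 3 libraries) of cytokines and chemokines in the upper panel and of RB pathway genes, EGFR ligands and FGF receptors in the lower panel. CXCL2, CXCL6, IL1B and CSF3 lie far higher in 5637 cells, PTGS2 and CCL2 lie higher in CAL-29 cells, and CDKN2A, CDKN2B and MTAP have no counts in CAL-29 cells.

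The genes of ELR chemokines, interleukins and colony-stimulating factors had the lowest median of the 30 lists. ELR chemokines recruit neutrophils, the colony-stimulating factors drive the growth of myeloid cells, and interleukin 1 sets off an inflammatory cascade in neighboring cells. Many of their genes are targets of the transcription factor NF-kappaB. Of 29 genes tested, 15 were higher in 5637 and 4 in CAL-29 cells, where the shares over all genes were 15.9% and 16.8%. The median was -1.28 with siCtrl and -0.64 in the siKMT9α libraries.

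The growth factors and interleukins of the list were mostly on the 5637 side. CSF3, or G-CSF, was at 0.278, 0 and 0 CPM in CAL-29 and 178, 159.5 and 179.6 CPM in 5637 cells. CSF2, or GM-CSF, was at 1.63 ± 0.6 CPM and 38.2 ± 1.66 CPM (23.5-fold higher in 5637). Only 1 CAL-29 library had a count for CSF3. IL1B was at 9.98, 11.3 and 10.2 CPM in CAL-29 and 328, 352 and 335 CPM in 5637 cells (32.2-fold higher in 5637). IL1A, the other ligand of the interleukin 1 receptor, was at 21.2, 22 and 21.2 CPM and 323, 332 and 318 CPM (-3.92 ± 0.05). IL6 was at 1.35, 1.37 and 0.884 CPM and 10.4, 11.2 and 10.6 CPM (-3.16 ± 0.16). No library of 1 line overlapped those of the other for these genes. IL11, of the same family as IL6, was at 32.8 ± 1.12 CPM and 35.3 ± 0.754 CPM and did not pass the test.

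The ELR chemokines were higher in every 5637 library. CXCL8, or interleukin 8, was at 55.3, 46.9 and 38.8 CPM in CAL-29 and 374, 369 and 360.2 CPM in 5637 cells (-2.97 ± 0.08). CXCL1 was at 105, 103 and 88.7 CPM and 401, 393 and 411 CPM (-2.02 ± 0.06). The gap was wider for CXCL6, at 3.26, 2.89 and 2.03 CPM and 224, 208 and 231 CPM (-6.35 ± 0.09), and for CXCL5, at 2.07, 1.33 and 1.92 CPM and 128, 118 and 129 CPM (-6.14 ± 0.09). A gene on the other strand covers 17.3% of the exon bases of CXCL5. CXCL1, CXCL2 and CXCL3 are near-identical copies, so the division of reads among them is uncertain. CCL20, a chemokine for dendritic cells and lymphocytes, was at 14.4, 16.7 and 16.5 CPM in 5637 cells with 3 counts in all in CAL-29 cells. The genes higher in CAL-29 cells included CCL2, a chemokine for monocytes, at 30.4, 27.6 and 25.2 CPM and 1.34, 1.76 and 1.8 CPM (4.08 ± 0.12). PTGS2, the cyclooxygenase COX-2, was at 424, 369 and 352 CPM and 85, 80.5 and 72.6 CPM (2.26 ± 0.07). CCL5 was on the same side (5.12 ± 0.18).

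In the siKMT9α libraries the log2 fold change was -0.64 for CXCL8, 0.56 for CXCL1, -0.64 for CXCL6 and -2.46 for CXCL5, of which CXCL5 alone passed the 2-fold test. It was -3.62 for IL1B, -9.48 for CSF3 and 9.41 for CCL2, which passed it. Whether a difference between the lines changed with the siRNA was not tested here, for these or any other genes.

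The promoters of 3 chemokines and of IL6 are shown because these genes lay on the same side and many of their family are known targets of NF-kappaB. Each sequence runs 5′ to 3′ on the strand of the gene and ends at the base before the annotated start, taken from RefSeq on GRCh38.p14, and capitals mark matches to GGNNTTTCC, a core of the NF-kappaB site, which was searched on both strands. The matches began 91 bases before the start in CXCL8 (chr4:73740319-73740568), 78 and 53 bases in CXCL1 (chr4:73869143-73869392), 89 bases in CXCL6 (chr4:73836428-73836677) and 72 bases in IL6 (chr7:22726950-22727199), and all 4 genes lie on the plus strand.
CXCL8: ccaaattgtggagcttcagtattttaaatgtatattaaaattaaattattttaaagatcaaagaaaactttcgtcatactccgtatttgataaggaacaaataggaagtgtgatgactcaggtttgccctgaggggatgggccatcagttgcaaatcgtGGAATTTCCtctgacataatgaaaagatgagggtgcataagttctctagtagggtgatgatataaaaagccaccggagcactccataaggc
CXCL1: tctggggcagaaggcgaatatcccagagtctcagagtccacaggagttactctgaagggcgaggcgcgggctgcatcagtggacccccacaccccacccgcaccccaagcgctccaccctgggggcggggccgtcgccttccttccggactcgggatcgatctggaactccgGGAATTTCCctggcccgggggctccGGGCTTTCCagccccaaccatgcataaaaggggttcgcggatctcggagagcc
CXCL6: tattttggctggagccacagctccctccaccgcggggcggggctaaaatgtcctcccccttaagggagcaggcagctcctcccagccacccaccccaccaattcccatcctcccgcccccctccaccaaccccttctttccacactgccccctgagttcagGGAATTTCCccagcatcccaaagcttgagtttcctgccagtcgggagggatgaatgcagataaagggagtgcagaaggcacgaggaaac
IL6: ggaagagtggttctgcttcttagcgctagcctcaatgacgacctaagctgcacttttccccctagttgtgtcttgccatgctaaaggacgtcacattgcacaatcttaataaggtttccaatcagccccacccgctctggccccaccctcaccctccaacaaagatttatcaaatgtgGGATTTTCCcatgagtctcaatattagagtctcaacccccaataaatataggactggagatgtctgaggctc
The motif was found for 6.69% of all 27305 gene symbols with RefSeq promoter entries of the same 250 bases. In the cytokine list it was found for 12 of 23 genes with an entry (52.2%), for 10 of the 13 that were higher in 5637 cells and for 0 of 2 that were higher in CAL-29 cells. In the NF-kappaB list it was found for 12 of 15 genes (80%), in the interferon list for 4 of 27 (14.8%) and in the squamous list for 0 of 26. IL1B, IL1A and CSF2, all higher in 5637 cells, had no match in this window, and neither did PTGS2. CCL2 and CCL5, higher in CAL-29 cells, and CSF3, higher in 5637 cells, had no entry and were not searched. The shares of the 2 directions therefore cannot be compared. The motif and the genes were chosen with the expression values known, a match is only a run of letters, and motifs that may overlap it were not searched.

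Of 17 NF-kappaB subunits and feedback genes, 7 were higher in 5637 and 1 in CAL-29 cells, 8 of 17 where 32.7% of all genes were called. BIRC3, an inhibitor of apoptosis induced by NF-kappaB, was at 26.2, 21.2 and 20.2 CPM in CAL-29 and 272, 263 and 265 CPM in 5637 cells (-3.57 ± 0.07). NFKBIA, the inhibitor that closes the feedback loop, was at 112, 109 and 108 CPM and 365, 353 and 364 CPM (-1.72 ± 0.05). TNIP1, a partner of the inhibitor A20, was at 269 ± 4.24 CPM and 628 ± 16.7 CPM (-1.22 ± 0.05). The libraries of the lines did not overlap for these genes. TNFAIP3, the gene of A20 itself, did not pass the test (312 ± 15.3 and 259.6 ± 10.8 CPM). In the siKMT9α libraries, 3 of the 8 calls were made in the same direction, with -0.86 for BIRC3 and -0.85 for NFKBIA.

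Most interferon-stimulated genes that differed were higher in CAL-29 cells. These genes are switched on by a transcription factor complex that contains IRF9, and many encode antiviral proteins. Of 37, 20 were higher in CAL-29 and 4 in 5637 cells, and all 24 calls were made in the same direction in the siKMT9α libraries. The median was 1.29 with siCtrl and 1.70 in the siKMT9α libraries. BST2, or tetherin, which holds budding virus at the cell surface, was at 160.5, 158 and 159.6 CPM in CAL-29 and 0.311, 0.294 and 0.0858 CPM in 5637 cells (694-fold, adjusted p = 3.64e-21, edgeR). IFI27 was at 31.2, 29.3 and 28.1 CPM and 0.249, 0.457 and 0.572 CPM (6.09 ± 0.15). OASL, of the family of oligoadenylate synthetases, was at 8.11, 6.17 and 5.45 CPM and 0.249, 0.131 and 0.372 CPM (4.66 ± 0.27). Each was higher in every CAL-29 library. IRF9 itself was at 48.6 ± 4.42 CPM and 9.92 ± 1.12 CPM. The 4 genes higher in 5637 cells were ISG20, whose call was lost with DESeq2 and with a correction for length and GC content, and 3 neighbors of the IFITM family, which block virus entry. IFITM3 was at 9.94, 8.76 and 9.06 CPM in CAL-29 and 94, 101 and 106 CPM in 5637 cells (-3.44 ± 0.07). IFITM2 had no count in CAL-29 cells and was at 3.05, 3.4 and 3.72 CPM in 5637 cells, at least 88.7-fold higher. IFITM1 was also higher (-4.62 ± 0.18). The copies of the IFITM family resemble each other, so the division of reads among them is uncertain.

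Of 21 tested genes of HLA class I, antigen processing and class II, 5 were higher in CAL-29 and 3 in 5637 cells. These 8 of 21 compare with 32.7% called over all genes. HLA-C was at 798, 758 and 705 CPM in CAL-29 and 278, 287 and 291 CPM in 5637 cells (1.40 ± 0.05). HLA-E, the ligand of an inhibitory receptor of natural killer cells, was at 326, 321 and 309.6 CPM and 94.9, 93.5 and 92.3 CPM (1.77 ± 0.05). Both were higher in every CAL-29 library. B2M, the shared light chain of class I, was at 824 ± 20.7 CPM and 981 ± 19 CPM and did not pass the test. CD74, the invariant chain of class II, was higher in 5637 cells (-3.12 ± 0.07). Class I genes resemble each other and are polymorphic, so the reads counted for each are uncertain.

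In the Notch list, 4 of 17 genes were higher in CAL-29 and 2 in 5637 cells. These 6 of 17 are near the 32.7% called over all genes. The receptor NOTCH3 was at 413, 384 and 364 CPM in CAL-29 and 36.8, 37.2 and 39.5 CPM in 5637 cells (3.35 ± 0.06), with every CAL-29 library higher. In the Wnt list, 14 of 36 were higher in CAL-29 and 7 in 5637 cells, with receptors, ligands and antagonists on each side. The receptor FZD10 was at 25.3, 23.8 and 20.3 CPM in CAL-29 cells with no count in 5637 cells, at least 754-fold higher. The ligand WNT7A was higher in 5637 cells, at 35.5, 33.9 and 35.5 CPM and 327, 333 and 344 CPM (-3.26 ± 0.05). The ligand WNT10A was higher in CAL-29 cells, at 82.5, 83.1 and 89.2 CPM and 11.9, 13.3 and 14 CPM (6.5-fold). Of the secreted antagonists, DKK1 was higher in CAL-29 cells (2.63 ± 0.07). SFRP1 was at 24.2, 27.1 and 24.4 CPM in 5637 cells with no count in CAL-29 cells, at least 661-fold higher in 5637. TCF7, a transcription factor that acts with beta-catenin, was higher in 5637 cells (-3.90 ± 0.12).

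In the TGF-beta and BMP list, 13 of 31 genes were higher in CAL-29 and 6 in 5637 cells. BAMBI, a decoy receptor, was at 235, 232 and 221 CPM in CAL-29 and 6.59, 9.6 and 6.29 CPM in 5637 cells (4.94 ± 0.09). FST, or follistatin, an antagonist of activin, was higher in 5637 cells, at 8.67, 8.45 and 7.81 CPM and 135, 146 and 132 CPM (-4.05 ± 0.07). The libraries of the lines did not overlap for either gene. The ligands TGFB2 (764 ± 68.7 and 183 ± 3.8 CPM) and BMP2 (211 ± 15.3 and 23.4 ± 1.33 CPM) were higher in CAL-29 cells. Of 20 YAP-TEAD targets and partners, 3 were higher in CAL-29 and 4 in 5637 cells. These 7 of 20 are near the 32.7% called over all genes. ANKRD1 (1.67 ± 0.06), a target, and TEAD3 (2.15 ± 0.05), a partner, were on the CAL-29 side, and NT5E, the ectoenzyme CD73, on the 5637 side (-2.34 ± 0.06). CCN1 did not pass the test (872 ± 91.2 and 543 ± 51.4 CPM).

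Integrins, the receptors for matrix, were mostly higher in CAL-29 cells, 11 of 18 against 3 higher in 5637 cells, with a median of 1.48. ITGAV was at 2081, 1865 and 1794 CPM in CAL-29 and 494, 468 and 452 CPM in 5637 cells (2.02 ± 0.06). Its partners ITGB6 (2.07 ± 0.05) and ITGB3 (4.46 ± 0.13) and the common subunit ITGB1 (1.44 ± 0.06) were higher in the same line. All of their libraries were separate between the lines. ITGA11, a collagen receptor subunit, was at 12, 12.5 and 14.4 CPM in CAL-29 cells with no count in 5637 cells, at least 423-fold higher. ITGA3, a subunit of a laminin receptor, was higher in 5637 cells like ITGA6, at 494, 450.4 and 404 CPM and 1678, 1740.0 and 1719.6 CPM (-1.93 ± 0.07). Of 25 matrix proteases and inhibitors, 8 were higher in CAL-29 and 4 in 5637 cells, 12 of 25 where 32.7% of all genes were called. The interstitial collagenase MMP1 was at 0.0398, 0.152 and 0 CPM in CAL-29 and 51.5, 49.3 and 46.2 CPM in 5637 cells, and the tissue plasminogen activator PLAT (-2.34 ± 0.06) and SERPINE2 (-3.28 ± 0.07) were also higher in 5637 cells. MMP14, a membrane-bound protease, was at 955 ± 64.9 CPM and 626 ± 15.1 CPM and did not pass the test.

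The p16 protein encoded by CDKN2A blocks CDK4 and CDK6, which otherwise inactivate the RB protein and release the E2F factors. Of 30 genes of this pathway, 5 were higher in CAL-29 and 7 in 5637 cells, and 18 were not called. These 12 of 30 are not far from the 32.7% called over all genes. CDKN2A (chr9:21967751-21995300, GRCh37, minus strand) had no count in any CAL-29 library and was at 492, 487 and 517 CPM in 5637 cells, at least 13053-fold higher. The transcript kept for it was that of ARF, the other protein of the gene, which shares exons with the p16 transcript, so that reads of the 2 transcripts cannot be told apart over those exons. CDKN2B, its neighbor and the gene of p15, had no count in CAL-29 cells and was at 61.9, 67.7 and 68.5 CPM in 5637 cells, at least 1729.9-fold higher. MTAP, a gene of methionine salvage beside them, had no count in CAL-29 cells and was at 135, 135 and 132 CPM in 5637 cells, at least 3517-fold higher. The 3 genes thus shared 1 pattern. RB1 showed the opposite order, at 43.9, 47.3 and 49 CPM in CAL-29 and 4.94, 5.22 and 5.21 CPM in 5637 cells (9.11-fold, adjusted p = 7.65e-16, edgeR). E2F3 was at 52.6, 47.3 and 43.4 CPM in CAL-29 and 555, 527 and 531 CPM in 5637 cells (11.3-fold higher in 5637). MYC was at 67.9 ± 2.7 CPM and 311 ± 11 CPM (-2.20 ± 0.05). The libraries of the lines did not overlap for any of these genes. With siKMT9α the log2 fold change was 2.60 for RB1, -3.72 for E2F3 and -2.04 for MYC. CDK4 (183 ± 10.5 and 256 ± 6.26 CPM) did not pass the test. Genes on the other strand overlap 15.3% of the exon bases of CDKN2A and 44.2% of those of CDK4.

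The absence of counts in CAL-29 cells ran over a stretch of 9p21. From MIR31HG to LINC01239, 8 of the 9 tested genes of the window chr9:21329664-22824212 (GRCh37) were higher in 5637 cells. Each of the 8 had 0 counts in all 3 siCtrl libraries and in all siKMT9α libraries of CAL-29 cells. They included the long noncoding RNA MIR31HG, at 8.3, 9.17 and 8.78 CPM in 5637 cells, and DMRTA1, at 5.35, 5.58 and 5.23 CPM. KLHL9, on the telomeric side, was at 66.5, 69.3 and 63 CPM in CAL-29 and 64, 64.1 and 60 CPM in 5637 cells, which overlapped. Next to E2F3 on 6p22, CDKAL1 was at 19.6, 18.4 and 20.7 CPM in CAL-29 and 226, 229 and 242 CPM in 5637 cells (-3.57 ± 0.06). SOX4, further along, was at 849 ± 9.92 CPM and 915 ± 25.8 CPM and was not called, and ID4, on the other side, was higher in CAL-29 cells (4.48 ± 0.14). The windows were chosen after their values were seen, and DNA copy number was not measured in these libraries.

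A second block lay around PPARG on 3p25. Of 36 tested genes in chr3:9932258-13921568 (GRCh37), 30 were higher in 5637 and 1 in CAL-29 cells. This window was chosen after its values were seen, so its count is a description. A running median of the same siCtrl values, over 11 genes at 5 CPM or more, gave a wider run around this window, chr3:5163934-14185180. In that run 41 of 53 genes were higher in 5637 and 3 in CAL-29 cells, where the shares over all genes were 15.9% and 16.8%. The run was picked by the median of these values, so its count is partly set by the choice. The median of the 36 genes was -2.51 on the log2 scale with siCtrl and -2.39 in the siKMT9α libraries. IRAK2, a kinase of the interleukin 1 receptor pathway, was at 21.5, 19.9 and 18.5 CPM in CAL-29 and 532, 530.4 and 541 CPM in 5637 cells (26.8-fold higher in 5637). FANCD2, a gene of DNA crosslink repair, was at 25.1, 27 and 24.4 CPM and 386, 374 and 367 CPM (-3.88 ± 0.06). Every 5637 library was higher for both genes. VHL, which targets HIF for degradation (-2.57 ± 0.05, with 23.5% of its exon bases overlapped on the other strand), and the coat protein gene SEC13 (-2.40 ± 0.05) lay in the same block. RPL32, a ribosomal protein gene, was at 141, 164 and 178 CPM and 3517, 3727 and 3713 CPM (22.7-fold higher in 5637). The block was not uniform. TMEM40 and IQSEC1 were not called, with IQSEC1 at -0.25 ± 0.06, and FBLN2, which encodes a matrix protein, was at 123, 120.0 and 107 CPM in CAL-29 and 3.39, 4.24 and 3.32 CPM in 5637 cells (32-fold higher in CAL-29). PPARG and WNT7A, described above with the luminal factors and the Wnt ligands, lie in this block.

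**Figure D4:**
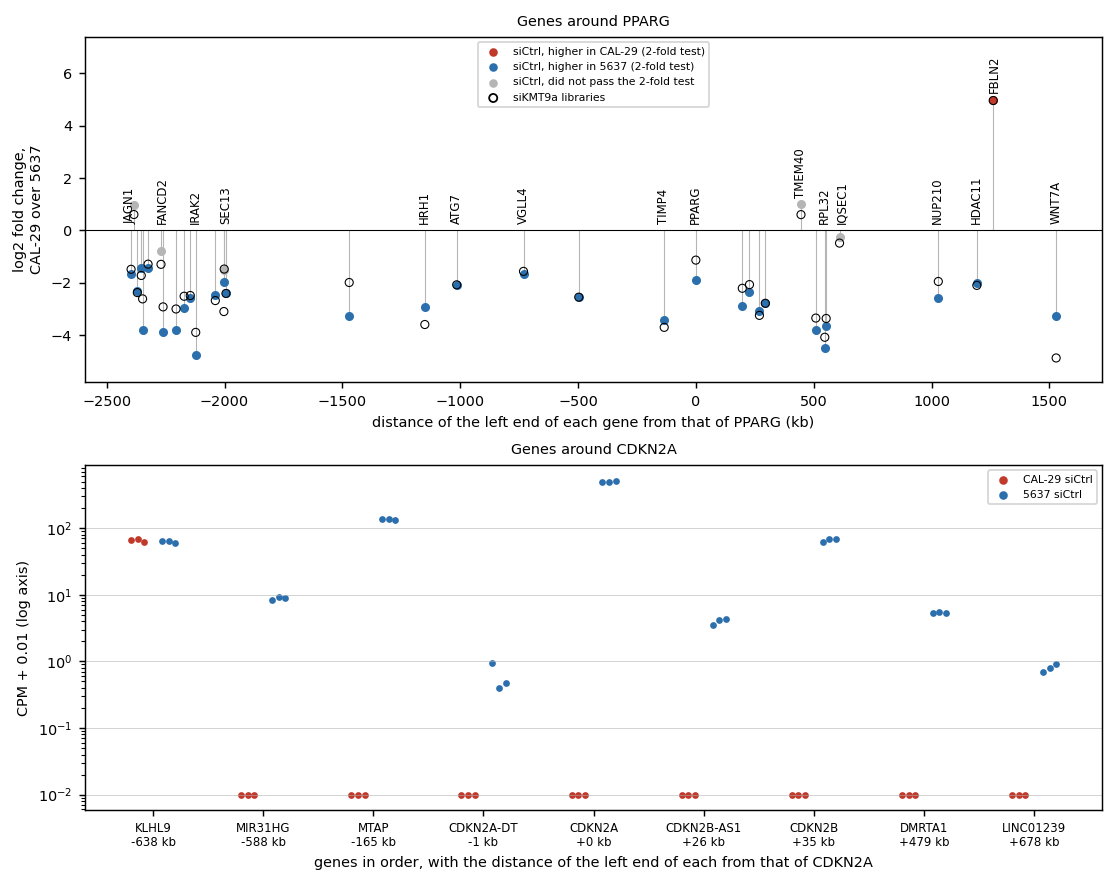
Upper panel, log2 fold change (CAL-29 over 5637) of tested genes against the distance in kb of their left end from that of PPARG, with filled points for siCtrl libraries, coloured by call, and open circles for siKMT9α libraries. Lower panel, CPM plus 0.01 (log axis) in each siCtrl library of the genes around CDKN2A, in order and with their distance from it. Most genes around PPARG lie below 0, spread widely about a median of -2.51, and 8 genes around CDKN2A have no count in CAL-29 cells.

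Of 23 genes of p53 and its targets, 4 were higher in CAL-29 and 3 in 5637 cells, 7 of 23 and so near the share over all genes. TP53INP1 (2.66 ± 0.05) and ZMAT3 (2.42 ± 0.07) were higher in CAL-29 cells and PLK3 in 5637 cells (-2.15 ± 0.08), while CDKN1A, the p21 inhibitor, was at 285 ± 6.51 CPM and 201 ± 5.93 CPM and MDM2 at 92.6 ± 4.77 CPM and 96.4 ± 3.24 CPM without passing the test. Of 25 chromatin and signaling genes often mutated in urothelial carcinoma, 1 was higher in CAL-29 and 3 in 5637 cells, 4 of 25 where 32.7% of all genes were called. The gene on the CAL-29 side was KDM6A, a histone demethylase, at 432, 439 and 442 CPM against 89.2, 86.8 and 79.5 CPM (2.36 ± 0.05). TERT, the catalytic subunit of telomerase, was at 1.39 ± 0.285 CPM and 4.58 ± 0.495 CPM (-1.72 ± 0.19). Expression does not show whether a gene is mutated.

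Of 17 cell surface drug targets tested, 6 were higher in CAL-29 and 3 in 5637 cells, 9 of 17 where 32.7% of all genes were called. NECTIN4, the target of enfortumab vedotin, was at 109, 106 and 94.9 CPM in CAL-29 and 13.1, 11.2 and 12.4 CPM in 5637 cells (8.45-fold). The CAL-29 libraries were all higher. VTCN1, the checkpoint ligand B7-H4, was at 85.6, 86.9 and 87.2 CPM and 0.0933, 0.0653 and 0.0572 CPM (10.16 ± 0.12). CD274, or PD-L1, was higher in 5637 cells, at 15.3, 11.4 and 11.6 CPM and 54.7, 58.2 and 49.8 CPM (-2.09 ± 0.09). These are transcript levels, and protein was not measured.

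NRF2 is the transcription factor of the response to oxidants. Of 24 of its targets and glutathione genes, 12 were higher in CAL-29 and 1 in 5637 cells, with a median of 1.19. GCLM, a subunit of the enzyme that starts glutathione synthesis, was at 65.6 ± 0.775 CPM and 12.7 ± 0.68 CPM (2.37 ± 0.06). GSTM1, a glutathione transferase, was at 60.6, 70.8 and 84.8 CPM in CAL-29 cells with no count in 5637 cells, at least 2348-fold higher. GSTM1 resembles GSTM2, and the AKR1C genes of the list resemble each other, so their reads may be shared. NQO1, a classical target, did not pass the 2-fold test (155 ± 4.96 and 119 ± 2.43 CPM).

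Of 24 fatty acid, PPAR and lipid droplet genes, 8 were higher in CAL-29 and 3 in 5637 cells. These 11 of 24 compare with 32.7% called over all genes. The fatty acyl ligase ACSL1 was at 99.7, 101 and 98.4 CPM in CAL-29 and 1.9, 1.31 and 1.49 CPM in 5637 cells (5.99 ± 0.09), and the related ACSL5 was on the same side (2.01 ± 0.06). The desaturase SCD was at 1581, 1463 and 1466 CPM and 424, 423 and 422 CPM (1.83 ± 0.05). CYP24A1, which breaks down vitamin D, was higher in CAL-29 cells too (2.89 ± 0.06), and PLIN2, which coats lipid droplets, was higher in 5637 cells (-1.79 ± 0.05). Of 29 glycolysis and hypoxia genes, 7 were higher in CAL-29 and 5 in 5637 cells. These 12 of 29 are not far from the 32.7% called over all genes. The glucose transporter SLC2A3 was at 11.9, 12 and 12.5 CPM and 0.0933, 0.098 and 0.0286 CPM (7.33 ± 0.24). The prolyl hydroxylase EGLN3 was at 13.1, 12.9 and 12.9 CPM and 0.933, 0.718 and 0.973 CPM (3.88 ± 0.15). Both were higher in CAL-29 cells, whereas LDHA, the lactate dehydrogenase subunit, was higher in 5637 cells, at 176, 185 and 179 CPM and 519, 529 and 549 CPM (-1.56 ± 0.05). The lactate exporter SLC16A3 was on the same side (-1.53 ± 0.06).

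Among genes with at least 100 CPM in the higher line, those with the largest fold changes included genes outside the lists. GPNMB, a glycoprotein of melanosomes and macrophages, was at 369, 355 and 345 CPM in CAL-29 and 0.249, 0.0327 and 0.2 CPM in 5637 cells (11.05 ± 0.12). HSPB8, a small heat shock protein, was at 307, 331 and 316 CPM and 0.373, 0.653 and 0.486 CPM (9.30 ± 0.10). The hair keratin KRT81, which has close copies, was at 483, 535 and 530.3 CPM and 6.41, 6.27 and 6.35 CPM (6.35 ± 0.07). The CAL-29 libraries lay far above the others for all 3, as they did for IGF2BP1, an RNA-binding protein of fetal tissues (8.93 ± 0.11), and COL4A4, a collagen of basement membranes (6.60 ± 0.07). C3, the central complement component, was at 44.7, 37.2 and 30.9 CPM in CAL-29 and 3279, 3276 and 3431 CPM in 5637 cells (88.7-fold higher in 5637). LCN2, or lipocalin 2, which binds bacterial siderophores, was at 60.1, 58.5 and 54.8 CPM and 3528, 3683 and 3855 CPM (63.8-fold higher in 5637). SERPINA1, or alpha-1 antitrypsin, was at 1.87, 0.838 and 1.25 CPM and 131, 129 and 143 CPM (-6.67 ± 0.11). These 3 secreted proteins were higher in every 5637 library, and in the siKMT9α libraries the log2 fold change was -4.83 for C3 and -2.89 for LCN2. The imprinted gene PEG10 (-8.86 ± 0.10), AEBP1 (-9.64 ± 0.12) and the insulin receptor substrate IRS2 (-8.72 ± 0.11) were also higher in 5637 cells. Over all genes, 703 were called higher in CAL-29 cells by over 10-fold and 520 in 5637 cells. Of the called genes, 79 had no count in the CAL-29 libraries and 115 had none in the 5637 libraries.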

How the data were processed

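RNA was sequenced from CAL-29 and 5637 cells 3 days after transfection with siCtrl or siKMT9α, 3 libraries per group. The authors aligned reads to hg19 with STAR and counted them with HOMER at default settings on RefSeq transcripts, and deposited estimated counts per transcript in steps of 0.5, not normalized, with replicates kept apart and 1 table per line. Beyond these defaults, the strand counted and the treatment of reads with several matches are not described in the sources used here. Both tables also hold fold changes and p-values of the authors' own comparisons of siRNA within a line, which were not used.

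The tables were joined by transcript (37400 in each), and for each of 23064 symbols the transcript with most counts over the 6 siCtrl libraries was kept and rounded, since 34.7% of the kept siCtrl counts were not whole. No row lacked a gene name. Totals on kept transcripts were 25286849.5 to 27125677.5 in CAL-29 and 30736113.5 to 35148811.5 in 5637 libraries, and the common biological coefficient of variation was 4.91%. Between any 2 libraries of a group the chi-square per degree of freedom was 3.18 to 12.4, above sampling noise, and all were used. Genes were filtered by filterByExpr, scaled by TMM and tested with edgeR 4.0.16 (glmQLFit, glmQLFTest, and glmTreat against 2-fold) in R 4.3.3, with Benjamini-Hochberg adjustment over 15070 genes, and the procedure was tested on simulated data. The same fit was made on the 6 siKMT9α libraries. DESeq2 1.42.0 was an alternative, and figures were drawn with matplotlib 3.10.9.

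Positions are from GENCODE on GRCh37, which matched 14432 tested genes by symbol, and promoters from RefSeq on GRCh38.p14. A gene without counts in a line was given the lowest fold that 3 counts over that group allow, a floor that covers counting error only. The gene lists (715 genes, 31 lists) and all members were chosen with earlier results of these data known. Named genes were the 12 with the largest fold change in each direction at 100 CPM or more, up to 4 per direction and list at 5 CPM or more, the 2 most expressed of each list, N6AMT1, TRMT112, EGFR, AKT1 and cell type markers. Some genes that the rule names are not reported here. A further 51 genes were named after their values were seen, namely ESRP1, ESRP2, KRT16, DSG3, VIM, TAGLN, TWIST1, COL1A2, CDH2, SNAI2, ZEB1, CXCL8, CXCL3, IL1A, IL1B, IL6, CSF2, IL11, FGFR1, ERBB3, SPRY2, PHLDA1, TNFAIP3, IRF9, IFITM2, TGFB2, BMP2, MYC, CDK4, MDM2, TERT, GCLM, NQO1, IRAK2, FANCD2, VHL, SEC13, RPL32, FBLN2, TMEM40, IQSEC1, CDKAL1, SOX4, KLHL9, MIR31HG, DMRTA1, LINC01239, HOXC4, HOXC9, HOXA13 and HOXB9.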

Additional observations from a re-analysis of the deposited data

How the results depend on the processing

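The counts of genes were recomputed under 19 alternatives, of scaling, filter, tool, transcript, samples, replicate block, threshold, left-out library and, added after seeing the data, a correction for transcript length and GC content. They moved by over 1.5 times only with the fold tested: against 1.5-fold, 7726 genes were called (3876 higher in CAL-29, 3850 in 5637), and against 4-fold 1953 (1080 and 873). Leaving out 1 library gave 6555 to 9115 genes at p below 1e-06 and 4801 to 4958 past the 2-fold test. DESeq2 gave 9212 and 4218. The median of all genes lay between -0.01 and 0.10 under every scaling.

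The replicate number as a block gave 9288 genes at p below 1e-06 and 4963 past the 2-fold test and changed the call of no named gene. The deviations of same-numbered libraries correlated at 0.184, 0.034 and 0.070, and those of libraries with unlike numbers at -0.125 to 0.059. CAL-29 replicate 2 correlated best with another number. With so few libraries these values cannot decide whether same-numbered libraries share more than a number.

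Of 4996 values of 297 genes, 4945 kept direction and call, 39 lost it, 6 gained it and 6 changed sign, all 6 with the length and GC correction and all under 2-fold: B2M 0.0196, FAT1 -0.0191, GSTP1 0.30, KLHL9 -0.12, KRT19 0.25 and UPK3B 0.0668. The trend removed ran from -0.66 to 0.36 on the log2 scale. Of 510 medians of lists, 96 moved by more than the spread between replicates, and those of the basal, HOX, FGF, other receptor tyrosine kinase, HLA, YAP and mutated gene lists changed sign under some setting. The causes were not tested. Depth limits the low genes: 3 counts over a group are 0.0382 CPM in CAL-29 and 0.0307 CPM in 5637 cells.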

Other observations

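Ribosomal protein genes, chosen after their values were seen, were mostly higher in 5637 cells. Apart from RPL32, which lies in the 3p25 block, 81 of them were tested: 62 were higher in 5637 cells, none was called higher in CAL-29 cells, and the median log2 fold change was -1.39 (-1.06 in the siKMT9α libraries). The genes were taken by a pattern of their symbols, which also lets in similarly named genes such as RPL7L1. The values ran from -3.10 for RPS28 to 0.35 for RPL7L1. The transcripts of these genes are short, and after the correction for length and GC content the median was -1.06 with 39 called. Many ribosomal protein genes have processed pseudogenes, and reads were counted with HOMER at its default settings, with no further word on reads shared between copies.

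Further runs of neighboring genes on the same side were found with a running median over 11 genes at 5 CPM or more, with a limit of 2 on the log2 scale. The runs were picked by these same siCtrl values, so their siCtrl counts and medians are partly set by the choice. Over all genes, 16.8% were higher in CAL-29 and 15.9% in 5637 cells. On chromosome 19, 12 of 14 genes from ZNF28 to ZNF765 (chr19:53300661-53933666, GRCh37) were higher in CAL-29 cells, with a median of 1.94 (1.82 in the siKMT9α libraries), and so were 8 of 12 from ZNF444 to ZNF543 (chr19:56643968-57842138), with a median of 2.16 (1.53). Both runs hold Krüppel-associated zinc finger genes, whose copies resemble each other. On the short arm of the same chromosome, 9 of 12 genes from RPL36 to ALKBH7 (chr19:5674958-6375261) were higher in 5637 cells, with a median of -2.12 (-1.71). The run around the ELR chemokines on chromosome 4 (chr4:71768043-76862166) held 10 of 19 genes higher in 5637 cells, with a median of -1.47 (-0.44). The run on chromosome 2 with 9 UGT1A genes is set aside, since these share their last exons and so their reads.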
